A study of Mus musculus with 34 samples.

Results

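The genes of glycogen metabolism and the Ppp1r3 subunits were followed in the livers of 34 juvenile C57BL/6 mouse pups collected on postnatal day 15, in which thyroid hormone had been lowered, raised, or lowered and then replaced. The 9 members were Ppp1r3b, Ppp1r3c, Ppp1r3d, Gys2, Pygl, Gbe1, Ugp2, Gyg and Phka2, and the probes of each were found through the RefSeq accession that the scanner files give. Of these, 8 genes had a probe, 11 probes in all among the 41174 probes and 16535 named genes measured. Ppp1r3d had no probe under this rule and is not analysed here. The set was selected on measured values, because Ppp1r3c was seen to fall between hypo and hypo+ pups. That difference is therefore given as a description with no test, and the other genes were compared with it.

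Control pups (4 males, 4 females) were nursed by untreated dams and received a saline injection 4 h before collection. Hypo pups (4 males, 5 females) were nursed by dams whose water held 0.05% methimazole, which blocks thyroid hormone synthesis, and 1% sodium perchlorate, which blocks iodide uptake, for 3 days, and they received saline. Hypo+ pups (4 males, 3 females) had the same exposure and an injection of 20 µg T4 and 2 µg T3 per 100 g body weight 4 h before collection. Hyper pups (5 males, 5 females) had no goitrogen and received 50 µg T4 and 5 µg T3 per 100 g at that time. The paper divided the injected goitrogen pups by their measured serum T4. Those with T4 like that of hyper pups were kept off the arrays, so the hypo+ pups here were selected on T4. The pups reached the goitrogens only by way of the dam, several pups came from 1 litter, and whole liver was used, so that in these bulk samples fewer cells of a type and less RNA per cell cannot be told apart. Pup RNA was labelled with Cy5 on every array and hybridised with a universal mouse reference RNA in Cy3. Levels below are log2 ratios of pup to reference after loess normalisation, differences are differences of these log2 levels, and a gene was called at an adjusted p below 0.05 in limma (moderated linear models, Benjamini-Hochberg over all probes).

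Liver stores glucose as glycogen after a meal and releases it in the fast. Glucose is phosphorylated, passed to UDP-glucose by Ugp2, added to a glycogenin primer (Gyg) by glycogen synthase (Gys2 in liver) and branched by Gbe1. Glycogen phosphorylase (Pygl in liver) takes it apart, and phosphorylase kinase, of which Phka2 is the liver regulatory subunit, switches phosphorylase on. The Ppp1r3 proteins tether protein phosphatase 1 to the glycogen particle, where it turns synthase on and phosphorylase off. Ppp1r3b (also called GL) and Ppp1r3c (also called PTG, protein targeting to glycogen) are both made in liver.

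The arrays had median Cy5 signals of 146 to 199 and 60.8 to 79.4% of probes well above background in Cy5. That share differed by scan batch, from 60.8 to 66.4% in 1 batch and from 74.9 to 79.4% in another. Thyroid state was checked in 3 genes fixed for this, Dio1, Thrsp and Me1. In hyper pups all 3 stood above control pups, by 0.33 to 1.01 in the average over the sexes. Of these, 1 was called in that average and 0 in either sex (limma). Averaged over the sexes, all 3 check genes were lower in hypo than in control pups, with Dio1, the deiodinase that is a direct thyroid hormone target, at a log2 difference of -1.61 (SE 0.18, limma adjusted p = 1.99e-06). All 4 hepatocyte markers with a probe were well above background on every array on which they were measured. In 3 control pups (males 522 and 832, female 831) the summed Cy5 signal of 5 pancreatic acinar markers was above 5 times the median of all pups, and in hypo female 721 that of 6 skeletal muscle markers was. Summed acinar signals ran from 564 to 43410 in control, 511.5 to 727 in hypo, 565.5 to 2323 in hypo+ and 545.5 to 722.5 in hyper pups, with 3 to 5 of the markers above background. Summed muscle signals ran from 679.5 to 1198 in control, 684 to 12440 in hypo, 655.5 to 1646 in hypo+ and 697 to 2543 in hyper pups, with 2 to 6 above background. Results were therefore also computed without these 4 pups, leaving 30, and are given below. Pups 721, 831 and 832 came from 1 scan batch, and 831 and 832 were its only control pups. What leaving them out changed therefore cannot be told apart from an effect of that batch.

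Ppp1r3c stood highest in hypo pups, lower in control pups and lowest in hyper and hypo+ pups. Its brighter probe is used for all values unless the other is named. In control females the levels were 2.94, 3.33, 3.48 and 4.17, and in control males 2.70, 3.5, 3.84 and 4.10. In hypo females they were 4.27, 4.30, 4.53, 4.69 and 4.74, and in hypo males 4.35, 4.74, 4.75 and 4.79. Every hypo pup was above every control pup, in either sex. In hypo+ females the levels were 2.29, 2.87 and 3.54, and in hypo+ males 1.94, 2.34, 2.75 and 3.41. In hyper females they were 2.23, 2.34, 2.42, 2.72 and 2.78, and in hyper males 2.20, 2.25, 2.53, 2.91 and 2.94. Hyper and hypo+ pups overlapped each other, and every hypo+ pup was below every hypo pup. The reference signal of this probe was well above background on 13 of the 34 arrays, against all 34 for the pup signal, so the ratios place pups relative to each other and do not give the true distance from the reference.

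**Figure D1:**
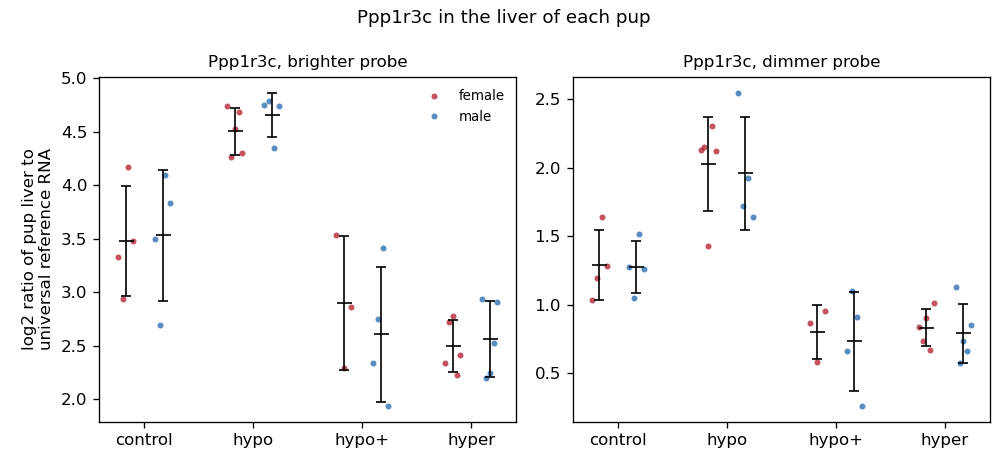
Log2 ratio of pup liver to universal reference RNA for the brighter (left) and the dimmer (right) Ppp1r3c probe, by treatment. Points are pups (females red, males blue), with the mean and SD of each sex in black. On the brighter probe the 9 hypo pups lie between 4.27 and 4.79 and the 10 hyper pups between 2.20 and 2.94.

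The difference that chose the gene, hypo+ minus hypo, was -2.05 in males (SE 0.30, 4.13-fold lower) and -1.60 in females (SE 0.26, 3.04-fold lower). On the dimmer probe it was -1.22 in males (SE 0.19) and -1.23 in females (SE 0.17). The dimmer probe was well above background in the pup channel on 33 arrays and in the reference channel on none. Of all probes, 0.369% were called in this comparison in males, 0.556% in females and 3.07% averaged over the sexes, and nothing is read from Ppp1r3c being among them. On slides that carried both groups of 1 sex, the difference was below 0 in 4 of 4 sets, from -2.0 to -0.99. Using the ratio written by the scanner software in place of loess values, the average over the sexes was -1.27 in place of -1.83.

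The contrast of hyper with control pups shares no hypo or hypo+ pup with the one that chose the gene, but the spread in its fit was estimated over all groups. Ppp1r3c was lower in hyper pups by a log2 difference of -0.97 in males (SE 0.29, limma adjusted p = 0.722) and -0.98 in females (SE 0.24, limma adjusted p = 0.18), neither past the threshold, although females passed it with slide as a block (-1.0, limma adjusted p = 0.0346). In 1 fit averaged over the sexes, a comparison chosen after the sexes had been seen apart, the difference was -0.97 (SE 0.19, 95% interval -1.37 to -0.58, 1.96-fold lower, limma adjusted p = 0.00694). With only the hyper and control pups fitted, the averaged difference was again -0.97 (limma adjusted p = 0.0136). The dimmer probe differed by -0.47 in the main fit (SE 0.13, limma adjusted p = 0.0747), not past the threshold. The call held with slide (-0.95, limma adjusted p = 0.00349) or scan date (-0.95, limma adjusted p = 0.00113) as a block, and without the 4 pups with high acinar or muscle markers (-0.93, limma adjusted p = 0.0253). With litter, inferred from the animal numbers, as a block the difference was -0.97 (limma adjusted p = 0.00899). Within slides the difference was below 0 in 7 of 8 sets of 1 sex on 1 slide, from -1.57 to 0.24. It missed the threshold after normexp background correction (limma adjusted p = 0.18), median centring (limma adjusted p = 0.114) and in the scanner ratios (limma adjusted p = 0.361).

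The 2 remaining Ppp1r3c comparisons use the hypo or hypo+ pups of the choosing contrast and are given without a test. Hypo pups were above control pups by 1.12 in males (SE 0.30) and 1.03 in females (SE 0.24), 1.08 averaged over the sexes (SE 0.20, 2.11-fold higher). On the slides with both groups, hypo pups were above control pups in 7 of 7 sets, by 0.35 to 2.05. Without the 4 pups with high acinar or muscle markers the average was 1.12. Hypo+ pups differed from control pups by -0.92 in males (SE 0.30) and -0.58 in females (SE 0.27), -0.75 averaged (SE 0.21). The groups overlapped in both sexes on the brighter probe. Hypo female 721, the pup with the highest muscle markers, had a Ppp1r3c level of 4.53 within the range of the other hypo pups.

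The other regulatory subunit with a probe, Ppp1r3b, had its highest mean level in control pups (2.67) and its lowest in hypo pups (2.30). Levels ran from 2.16 to 3.00 in control pups (median 2.67), from 1.80 to 2.94 in hypo pups (median 2.43), from 1.99 to 2.70 in hypo+ pups (median 2.47) and from 2.33 to 2.91 in hyper pups (median 2.54). All groups overlapped. Averaged over the sexes, hypo pups differed from control pups by -0.36 (SE 0.13, 95% interval -0.62 to -0.10, limma adjusted p = 0.255), a value that does not pass the threshold and lies on the other side of 0 from that of Ppp1r3c. Without the 4 pups with high acinar or muscle markers it was -0.19 (limma adjusted p = 0.883), and the difference of hyper from control pups was 0.01 (limma adjusted p = 0.999). The difference from control was -0.12 in hyper pups (SE 0.12, limma adjusted p = 1) and -0.24 in hypo+ pups (SE 0.14, limma adjusted p = 0.567).

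RefSeq start regions (build GRCm38.p6, 250 bases before the start and 50 after it) were at hand for 7 of the 9 members. They are shown here for the genes whose differences are described at length. Each was searched on both strands for AGGTCA, the core hexamer bound by thyroid hormone receptors and other nuclear receptors, for a direct repeat of that hexamer with a spacer between (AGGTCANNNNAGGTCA), for the E-box CACGTG and for the cyclic AMP response element TGACGTCA. Capitals mark a match. Of 32851 start regions of this length, 16.3% held AGGTCA, 0.0152% the tandem pair, 7.15% CACGTG and 1.79% TGACGTCA. The region of Ppp1r3c is chr19:36736555-36736854 on the minus strand, and it held 1 CACGTG, whose first base is at position -104 from the start. The same motif stood in the regions of Ppp1r3d (position -226) and Gyg (position 9), and AGGTCA in that of Pygl (position -128, minus strand), none of which is printed.
Ppp1r3c: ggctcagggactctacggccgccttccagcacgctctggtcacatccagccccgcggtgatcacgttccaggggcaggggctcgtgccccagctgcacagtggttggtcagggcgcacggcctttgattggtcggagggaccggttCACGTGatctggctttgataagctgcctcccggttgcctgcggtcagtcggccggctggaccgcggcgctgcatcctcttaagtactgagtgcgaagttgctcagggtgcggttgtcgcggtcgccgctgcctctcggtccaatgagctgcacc

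Ugp2, which makes the UDP-glucose that glycogen synthase consumes, was higher in hypo pups. Levels ran from 1.89 to 2.25 in control pups (median 2.05) and from 2.42 to 2.65 in hypo pups (median 2.51). Every hypo pup was above every control pup on this probe, and on the second probe this held in males alone. In hypo+ pups they ran from 1.86 to 2.55 (median 1.99) and in hyper pups from 1.62 to 2.07 (median 1.85). Hypo+ male 363, at 2.55, stood 0.936 of the range of its group from the nearest of the other males, whose levels were 1.95, 1.95 and 1.99.

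Hypo minus control for Ugp2 was 0.50 in males (SE 0.11, limma adjusted p = 0.173) and 0.44 in females (SE 0.09, limma adjusted p = 0.0781), neither past the threshold, although females passed it with slide as a block (0.46, limma adjusted p = 0.0163). Over both sexes it was 0.47 (SE 0.08, 95% interval 0.32 to 0.63, 1.39-fold higher, limma adjusted p = 0.00041). The second probe gave 0.37 (SE 0.07, limma adjusted p = 0.00371). The call held with slide (limma adjusted p = 2.78e-05) or scan date (limma adjusted p = 0.000457) as a block and without the 4 pups with high acinar or muscle markers (0.51, limma adjusted p = 0.00443). With inferred litter as a block the difference was 0.47 (limma adjusted p = 0.000748). On single slides hypo pups were higher in 7 of 7 sets of 1 sex. On the brighter probe the difference kept its size but missed the threshold after median centring (0.47, limma adjusted p = 0.581) and in the Cy5 channel alone (0.46, limma adjusted p = 0.0548). The second probe did pass in the Cy5 channel alone (0.49, limma adjusted p = 0.00114). Hyper minus control was -0.18 (SE 0.07, limma adjusted p = 0.492). On the second probe it was -0.23 (limma adjusted p = 0.141), and with slide as a block -0.26, past the threshold (limma adjusted p = 0.00814). Hypo+ minus control was 0.06 (SE 0.08, limma adjusted p = 0.873). Hypo+ minus hypo, the contrast of the choosing rule, was -0.41 (SE 0.08), given without a test. The start regions of Ugp2, at chr11:21371218-21371517 and chr11:21370580-21370879 on the minus strand, held none of the 4 motifs.
Ugp2, first start: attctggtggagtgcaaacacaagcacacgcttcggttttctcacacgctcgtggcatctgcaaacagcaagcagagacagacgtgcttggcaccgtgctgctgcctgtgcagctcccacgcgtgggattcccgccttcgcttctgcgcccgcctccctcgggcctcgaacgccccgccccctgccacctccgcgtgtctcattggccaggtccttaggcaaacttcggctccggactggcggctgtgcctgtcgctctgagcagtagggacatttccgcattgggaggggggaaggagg
Ugp2, second start: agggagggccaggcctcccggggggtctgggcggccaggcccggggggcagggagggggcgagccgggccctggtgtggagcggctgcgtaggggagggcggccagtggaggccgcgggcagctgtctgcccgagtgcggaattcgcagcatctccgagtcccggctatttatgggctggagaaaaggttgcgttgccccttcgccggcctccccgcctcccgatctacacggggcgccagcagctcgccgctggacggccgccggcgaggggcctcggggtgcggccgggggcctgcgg

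Gbe1, the branching enzyme, was lower in hypo pups. Its levels were 0.64, 0.67, 0.72 and 0.84 in control males and 0.03, 0.25, 0.31 and 0.37 in hypo males. The male groups did not overlap. In females they were 0.47, 0.48, 0.66 and 0.76 in control pups and -0.01, 0.21, 0.24, 0.55 and 0.59 in hypo pups, which overlapped. Hypo+ pups ran from 0.38 to 0.57 and hyper pups from 0.46 to 1.06. The region of Gbe1, chr16:70313699-70313998 on the plus strand, held none of the 4 motifs.
Gbe1: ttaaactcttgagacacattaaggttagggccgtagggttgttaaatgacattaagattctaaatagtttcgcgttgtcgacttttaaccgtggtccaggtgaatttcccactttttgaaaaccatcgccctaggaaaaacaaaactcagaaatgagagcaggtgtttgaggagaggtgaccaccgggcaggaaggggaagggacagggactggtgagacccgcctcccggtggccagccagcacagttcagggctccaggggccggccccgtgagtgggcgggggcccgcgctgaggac

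Hypo minus control for Gbe1 was -0.48 in males (SE 0.09, limma adjusted p = 0.0451), which made it the 1 member called against control pups when the sexes were fitted apart. That call was lost when any of 15 of the 17 male pups was left out and, at -0.50, without the pups with high markers (limma adjusted p = 0.345). In females the difference was -0.27 (SE 0.10, limma adjusted p = 0.8). The female minus male difference was 0.20 (SE 0.14), not past the threshold (limma adjusted p = 1). Over both sexes, Gbe1 was lower in hypo pups, at -0.37 (SE 0.07, 95% interval -0.52 to -0.23, 1.3-fold lower, limma adjusted p = 0.00266), and this call held with any single pup left out. It held with slide (limma adjusted p = 0.0098), scan date (limma adjusted p = 0.0037) or inferred litter (limma adjusted p = 0.00447) as a block. Without the 4 pups with high acinar or muscle markers it held as well (-0.41, limma adjusted p = 0.0107). On single slides hypo pups were lower in 6 of 7 sets of 1 sex, from -0.81 to 0.07. The averaged difference missed the threshold after median centring (-0.41, limma adjusted p = 1) and in the Cy5 channel alone (-0.26, limma adjusted p = 0.19). Hypo+ pups differed from control pups by -0.16 (SE 0.07, limma adjusted p = 0.412) and hyper pups by 0.06 (SE 0.07, limma adjusted p = 1).

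**Figure D2:**
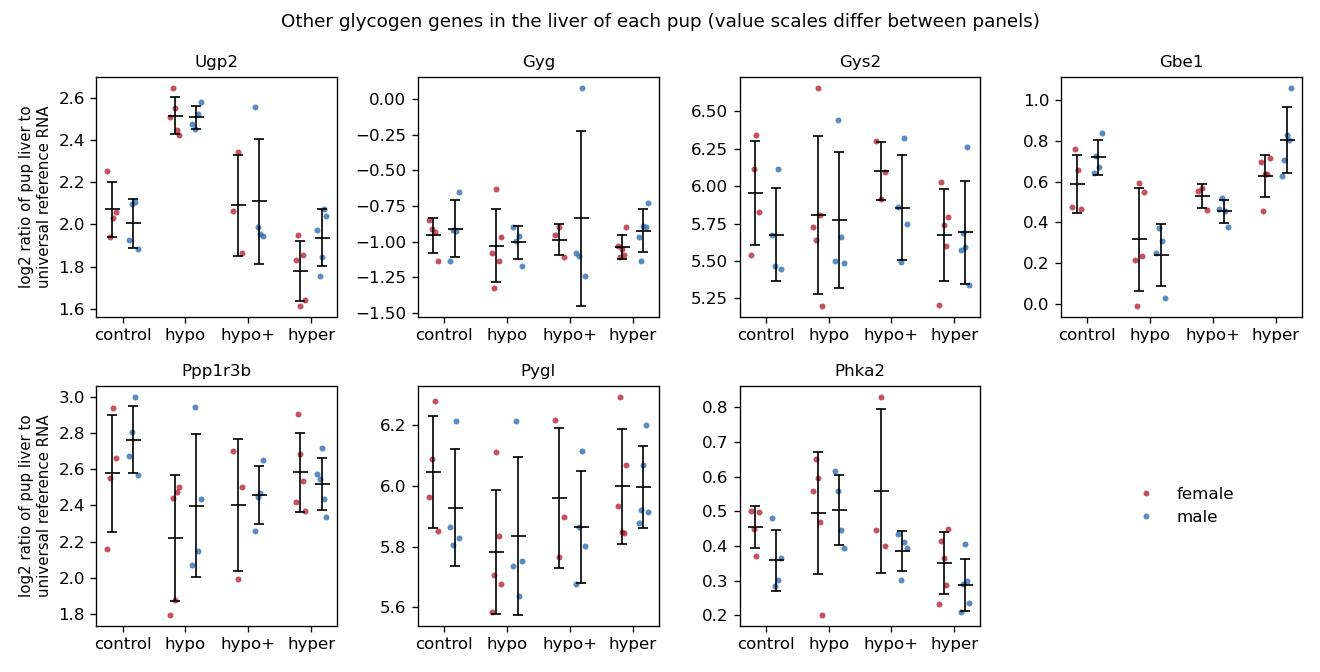
Log2 ratio of pup liver to universal reference RNA for the 7 other glycogen genes with a probe, by treatment, on the probe used for the gene's value. Points are pups (females red, males blue), with the mean and SD of each sex in black and a scale of its own in each panel. Ugp2 lies between 2.42 and 2.65 in hypo pups, above all control pups, and Gyg, Gys2, Ppp1r3b, Pygl and Phka2 overlap between groups.

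No call was made for the enzymes at the centre of synthesis and breakdown. Gys2, the liver glycogen synthase, had group medians of 5.75 in control, 5.66 in hypo, 5.91 in hypo+ and 5.64 in hyper pups. Hypo minus control averaged over the sexes was -0.03 (SE 0.17, 95% interval -0.38 to 0.33, limma adjusted p = 1). It was -0.01 with slide (SE 0.06) and -0.02 with scan date (SE 0.07) as a fixed block, against 0.48 in the Cy5 channel alone (limma adjusted p = 0.0764). Pygl, the liver glycogen phosphorylase, had medians of 5.91, 5.74, 5.86 and 5.93 in the same order, and hypo minus control was -0.18 (SE 0.09, 95% interval -0.36 to 0.01, limma adjusted p = 0.636). Pygl did pass in the Cy5 channel alone, at -0.32 (limma adjusted p = 0.00721), and with scan date as a block, at -0.18 (limma adjusted p = 0.0366). Gyg, the primer, had medians of -0.924, -0.996, -1.08 and -1.0, and hypo minus control was -0.08 (SE 0.12, limma adjusted p = 0.991). Hypo+ male 546 had a Gyg level of 0.08, against -1.08 in the nearest of the other hypo+ males. Phka2 had medians of 0.41, 0.56, 0.41 and 0.30, and hypo minus control was 0.09 (SE 0.06, limma adjusted p = 0.779). For these 4 genes and Ppp1r3b no comparison with control pups, in either sex or averaged, passed the threshold without such a change in processing.

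**Figure D3:**
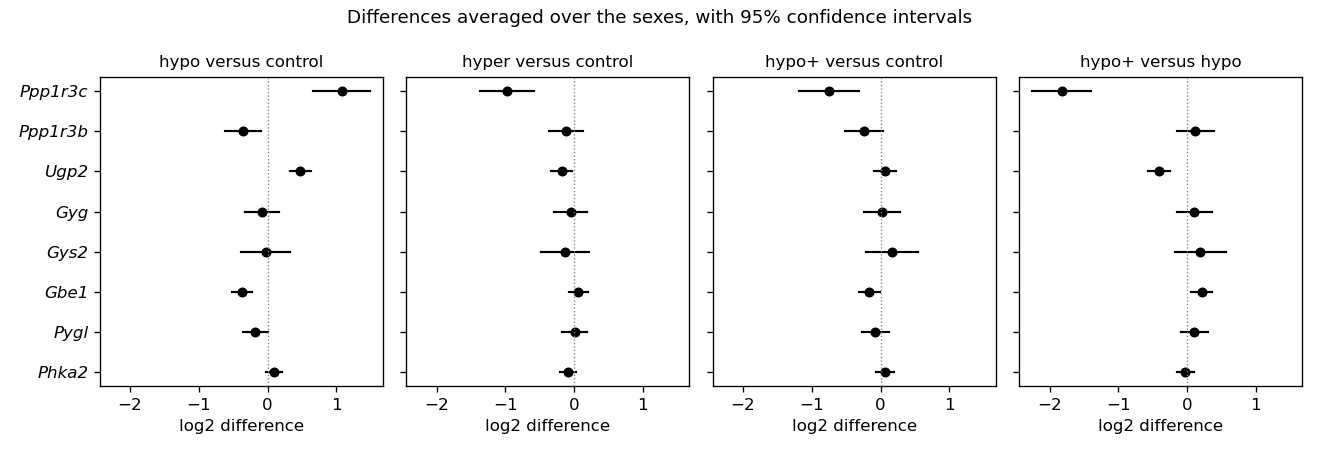
Log2 difference of each member averaged over the sexes (points) with its 95% confidence interval (lines), in the 4 comparisons. Ppp1r3c lies at 1.08 in hypo versus control, -0.97 in hyper versus control and -1.83 in hypo+ versus hypo, the contrast that chose the set. Ugp2 (0.47) and Gbe1 (-0.37) were called in hypo versus control. Some intervals miss 0 without a call, among them Ppp1r3b in hypo versus control (-0.62 to -0.10). Ugp2 in hyper versus control (-0.33 to -0.03) and Gbe1 in hypo+ versus control (-0.31 to -0.01) do so too.

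With the sexes fitted apart, 1 of 8 members (Gbe1) was called in hypo versus control males, where 0.0971% of all probes were, and 0 of 8 in females, where 0.155% were. In hyper versus control, 0 of 8 were called in males (0.0753% of all probes) and 0 of 8 in females (0.158%). In hypo+ versus control, 0 of 8 were called in males (0.0267%) and 0 of 8 in females (0.0219%). At an unadjusted p below 0.05 (limma), the 7 members other than Ppp1r3c numbered 4 in hypo males, 3 in hypo females, 1 in hypo+ males and 0 in hypo+ females. The shares of all probes at that p were 5.2, 4.72, 7.56 and 4.79% in the same order. Of all 8 members, 1 was at that p in hyper males and 2 in hyper females, beside 2.97 and 6.16% of all probes. In the average, 2 of the 7 members other than Ppp1r3c were called in hypo versus control (Ugp2 higher, Gbe1 lower) against 1.09% of all probes. Ppp1r3c is left out of that count, since its hypo pups are among those that chose it. In hyper versus control 1 of 8 was called (Ppp1r3c, lower) against 0.848%, and in hypo+ versus control 0 of 8 against 0.746%. In hypo+ versus control, 1 of the 7 members other than Ppp1r3c had an unadjusted p below 0.05 (limma), beside 10.8% of all probes. For hypo, hyper and hypo+ against control, the median difference of the members was -0.06, -0.10 and -0.03, beside medians over all probes of 0, -0.003 and -0.0059. In hypo+ versus hypo, the contrast that chose the set, 1 of 8 members (Ppp1r3c) was past the threshold in each sex and 2 of 8 (Ppp1r3c and Ugp2) in the average, and the median difference of the 7 other members was 0.11. Nothing is read from these counts. The comparisons with control share the same control pups. No member was called for a difference between the sexes in any comparison, with a smallest unadjusted p of 0.106 over the 11 member probes (limma). Over all 41174 probes 0 were called for such a difference as well, while 429 to 868 had an unadjusted p below 0.05 (limma).

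Other genes of the pathway were taken from a fixed list of 44, of which 39 had a probe. With the sexes apart, 2 of 39 were called, both in hypo+ versus hypo, Stbd1 in females (0.556% of all probes called) and Prkacb in males (0.369%), and nothing is read from that count. In the average, 2 of 39 were called in hypo versus control (both higher, against 1.09% of all probes), 1 in hyper versus control (lower, against 0.848%), 0 in hypo+ versus control (against 0.746%), with 6 at an unadjusted p below 0.05 (limma), and 4 in hypo+ versus hypo (1 higher, 3 lower), where 3.07% of all probes were called and nothing is read from the count. For hypo, hyper and hypo+ against control, the median difference of the 39 genes was 0.0031, -0.0057 and -0.0125. None of the 7 further genes of glycogen breakdown was called in any of these 4 averaged comparisons (limma), with 1 at an unadjusted p below 0.05 in hypo versus control and 1 in hypo+ versus hypo. Neither was any of the 5 other protein phosphatase 1 subunits, with 1, 1 and 2 at an unadjusted p below 0.05 in hyper versus control, hypo+ versus control and hypo+ versus hypo. Of all probes, 8.51% were at that p in hypo, 7% in hyper and 10.8% in hypo+ versus control, and 13.6% in hypo+ versus hypo. Nothing is read from these counts.

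Stbd1, a protein that binds glycogen and is linked to its delivery to lysosomes, had an order of group means like that of Ppp1r3c. Levels ran from -0.23 to 0.17 in control pups (median 0.05), from 0.09 to 0.58 in hypo pups (median 0.32), from -0.54 to 0.17 in hypo+ pups (median -0.28) and from -0.62 to -0.27 in hyper pups (median -0.48). Every hyper pup was below every control pup. Hyper minus control was -0.47 in the average (SE 0.08, limma adjusted p = 0.00145), and without the 4 pups with high acinar or muscle markers -0.53 (limma adjusted p = 0.00348), and of 13 settings median centring alone ended the call (-0.43, limma adjusted p = 1). On single slides hyper pups were lower in 8 of 8 sets of 1 sex, from -0.76 to -0.23. Hypo+ minus hypo was -0.58 (SE 0.09), given without a test. Hypo minus control was 0.34 (SE 0.08, limma adjusted p = 0.0421), a call lost when any of 11 pups was left out and in 6 of 13 other settings. Those were median centring (limma adjusted p = 1), Cy5 alone (0.325), the authors' values (0.0518), only the groups compared (0.0596), litter as a block (0.0594) and, at 0.30, leaving out the 4 pups with high markers (0.201). Stbd1 was chosen by the rule for naming called pathway genes, through its call in hypo+ versus hypo females. Its hypo pups therefore took part in that choice, and nothing is read from the hypo call. Within groups the Stbd1 levels ran against those of Ppp1r3c (r = -0.43 over 34 pups after group means were removed, a description). Its start region, chr5:92602801-92603100 on the plus strand, held none of the 4 motifs.
Stbd1: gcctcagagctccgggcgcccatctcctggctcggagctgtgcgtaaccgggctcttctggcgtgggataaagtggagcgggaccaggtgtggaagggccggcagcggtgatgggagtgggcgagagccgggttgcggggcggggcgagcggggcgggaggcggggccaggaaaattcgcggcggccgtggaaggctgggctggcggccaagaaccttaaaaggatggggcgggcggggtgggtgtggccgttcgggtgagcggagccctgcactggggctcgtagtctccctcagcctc

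Pgm1, the phosphoglucomutase that interconverts glucose 6-phosphate and glucose 1-phosphate, the step before Ugp2, was higher in hypo than in control pups by 0.32 (SE 0.06, 1.25-fold, limma adjusted p = 0.00521). Levels ran from 0.72 to 0.90 in control and from 0.89 to 1.39 in hypo pups, without overlap within either sex. The call held with any single pup left out and without the 4 pups with high markers (0.34, limma adjusted p = 0.0362), and of 13 settings median centring alone ended it (0.26, limma adjusted p = 1). Hypo+ minus hypo was -0.23 (SE 0.07), given without a test. Pgm1 was named through its calls in the average over the sexes, after its values were seen. Its hypo pups took part in that choice, and nothing is read from the hypo call.

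Prkacb, a catalytic subunit of the cyclic AMP-dependent kinase, and Irs1, an adaptor of the insulin receptor, are named for hypo+ minus hypo alone, the contrast that chose the set, and are described without a test. In the average, Prkacb differed by 0.29 on its brighter probe (SE 0.08) and 0.03 on the other (SE 0.07). Irs1 differed by -0.22 (SE 0.06), on a probe with Cy5 signals of 99 to 148, close to the negative-control limit of 85.0 to 106 on these arrays, and the difference was -0.16 to -0.70 over the settings tried.

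**Figure D4:**
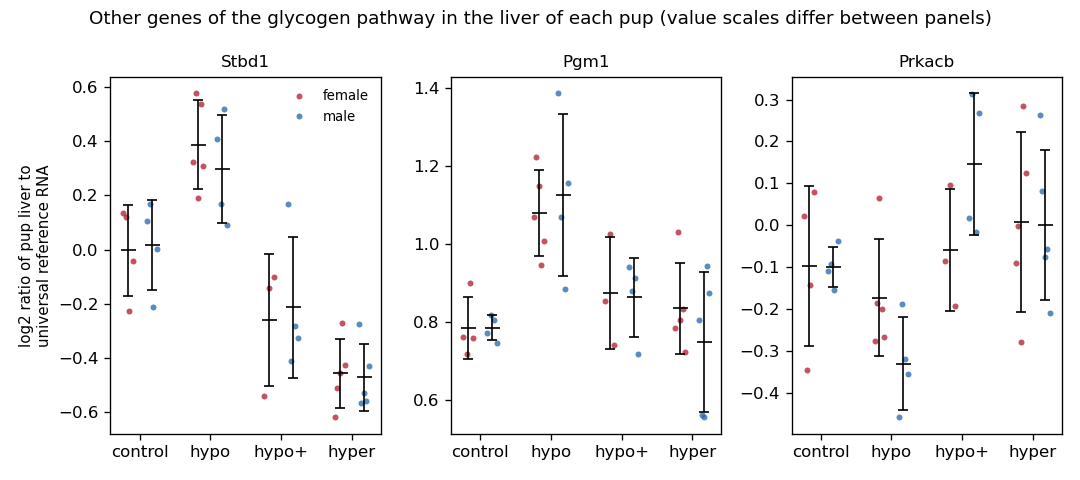
Log2 ratio of pup liver to universal reference RNA for Stbd1, Pgm1 and Prkacb by treatment, on the brighter probe of each gene. Points are pups (females red, males blue), with the mean and SD of each sex in black and a scale of its own in each panel. Stbd1 in the 10 hyper pups lies between -0.62 and -0.27, below all control pups, whose lowest is -0.23.

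Likeness to Ppp1r3c was ranked by Pearson r over the 34 pups among 15696 named probes that were well above background in every pup. The values describe pups that share treatments, and no test was made. The highest were Lzts3 (r = 0.87), G0s2 (0.85), Pter (0.85), Kifc3 (0.84) and Olig1 (0.84). G0s2, an inhibitor of triglyceride lipase, averaged 2.62 in control, 2.83 in hypo, 2.24 in hypo+ and 2.02 in hyper pups. The lowest were Cebpb (r = -0.93), Ulk1 (-0.91), Ppargc1b (-0.91), Sned1 (-0.90) and Gpcpd1 (-0.89). Cebpb, a transcription factor of the acute phase and of gluconeogenic genes, averaged 0.0032 in control, -0.75 in hypo, 0.53 in hypo+ and 0.68 in hyper pups. With the group means removed, r with Ppp1r3c was 0.73 for G0s2 and 0.80 for Kifc3, -0.75 for Cebpb and -0.16 for Sned1. Among the members and the pathway list, the second Ugp2 probe (r = 0.72, place 66), Stbd1 (0.71, place 90), the brighter Ugp2 probe (0.69, place 114) and Pgm1 (0.64, place 214) were nearest the top. With the group means removed, r was 0.20, -0.43, -0.15 and 0.27 in the same order. Slide and scan date were not removed from any of these values, and their part in them was not tested.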

How the data were processed

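Liver RNA of 34 pups was measured on 2-colour oligonucleotide arrays on 11 slides, scanned in 6 batches by date, with no dye swap. The scanner software (Feature Extraction 10.1.1.1, per the file headers) gave median intensity signals for Cy5 (pup) and Cy3 (reference), which were deposited per array. The deposited scanner files also hold a log10 ratio, and the authors' table holds log2 ratios that they had loess-normalised after leaving out the background subtraction. Both were used as alternatives. The 43379 spots that are not controls were taken without background subtraction, spots marked as outliers or non-uniform were left out, and log2 ratios were loess-normalised within arrays (limma 3.58.1, R 4.3.3) and averaged to 41174 probes. Of 33541 systematic names, 16806 matched a RefSeq symbol. A gene takes the value of its probe with the highest mean Cy5 signal, and counts as called where 1 or more of its probes passed. Each sex was fitted apart, as in the study's methods, with 4 groups. In limma, adjusted p-values cover all probes. The average over the sexes comes from 1 fit of 8 groups, and it, the litter block and the fit without 4 pups with high acinar or muscle markers were added after the data were seen. In the averaged fit, males and females of 1 litter count as separate pups. The study fitted the sexes apart to keep out correlation due to the dam. The members and lists were chosen with earlier results of these data known. Genes were named as follows: all members, pathway genes called in a sex, and the 5 probes most and least like Ppp1r3c. Pgm1 and Irs1, called in the average over the sexes, were chosen after their values were seen. A gene of the pathway list is not reported here. Alternatives were other background corrections and normalisations, a filter on dim probes, averaging of probes, slide, scan date and litter blocks, other sample sets and leaving out each pup. P-values measure the spread between pups, of which several share 1 of 20 litters inferred from the animal numbers. The fits were tested on simulated data. The number of arrays limits the precision. Arrays that the authors removed are not analysed here.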

Additional observations from a re-analysis of the deposited data

Results flagged for a closer look

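In 5 of 77 sets of a member probe and a group of 4 or 5 pups, 1 pup stood further from the rest than Dixon's limit allows, and chance alone gives about 1 in 20. Gyg in hypo+ male 546 was 0.077, against -1.08 in the nearest of its group. Ugp2 in hypo+ male 363 was 2.55, against 1.99. Pygl in control male 832, one of the pups with high acinar markers, was 6.21, against 5.87. In each group of 4 or 5 pups, the Pygl level furthest from the rest came from the scan batch of male 832. The brighter Ppp1r3c probe in hypo male 723 was 4.35, against 4.74. The dimmer Ppp1r3c probe in hypo female 721, the pup with the highest muscle markers, was 1.43, against 2.13. The part of these markers or of the scan batch in these single values was not tested. Without hypo+ male 363, hypo+ minus control for Ugp2 in males was -0.04 in place of 0.11.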

How the results depend on the processing

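No paired analysis was possible because the groups share no replicate numbers that could pair pups across them. Slide, scan date and inferred litter were fitted as blocks instead. The averaged calls of Ugp2 and Gbe1 in hypo pups and of Ppp1r3c in hyper pups kept their direction in all settings and their side of the threshold without any single pup, and the settings that ended them stand beside each. For the changes below, the cause was not tested. Of the members, Ppp1r3c included here, 1 was called in hypo versus control males. That number was 0 after normexp, median centring, in the scanner ratio, in Cy5 alone, with slide or scan date as a fixed block, with only the groups compared and without the 4 pups with high markers, 2 with slide as a random block, and 0 to 1 without single pups. In hypo versus control females, where it was 0, it was 1 after normexp, averaging of probes, scan date as a block and without the 4 pups, 2 with slide as a fixed or random block, and 0 to 1 without single pups. In hyper versus control females it was 1 in place of 0 with slide (fixed or random) or scan date as a block. Averaged over the sexes, the number called in hypo versus control, Ppp1r3c included, was 1 in place of 3 after median centring, and that 1 was Ppp1r3c. In hyper versus control it was 0 in place of 1 after normexp, median centring and in the scanner ratio, and 2 (Ppp1r3c and the second Ugp2 probe) with slide or scan date as a block. In hypo+ versus control it was 1 in place of 0 with averaged probes and with slide as a random block, and 0 to 1 without single pups. With both settings it was Ppp1r3c, and nothing is read from it, since its hypo+ pups are among those that chose it. The Ppp1r3c difference of hypo+ from hypo was -1.28 in males and -1.27 averaged in the scanner ratio. Of the pathway genes, 2 were called with the sexes apart, against 1 after normexp, in the authors' values, with averaged probes, with scan date as a block and without the 4 pups, 0 after median centring, in the scanner ratio, in Cy5 alone and with only the groups compared, and 1 to 2 without single pups. In the average, 4 were called in at least 1 of the comparisons, against 2 with slide as a fixed block, 0 after median centring, 6 with slide as a random block, and 2 to 5 without single pups.

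The reversals below were in differences that did not pass the threshold. After median centring they were Gbe1 in hyper males (-0.0073) and, in hypo+ pups, Ugp2 in males (-0.158), females (-0.0167) and averaged (-0.0876), Gyg (-0.136) and Phka2 (-0.0579). With slide as a fixed block, hypo+ values were -0.0354, -0.0629 and -0.0491 for Ugp2 in the same order and -0.0321 for Phka2. Gys2 in hypo pups was 0.10 after normexp and 0.48 in Cy5 alone, and Pygl in hyper pups -0.0082 in the scanner ratio. Without the 4 pups, Ugp2 in hyper males was 0.0322, Ppp1r3b in hyper pups 0.0126 and Pygl in hypo+ pups 0.0054. Without single pups, hypo+ values of Ugp2 ran from -0.0425 to 0.16 in males, -0.11 to 0.13 in females and -0.0119 to 0.12 averaged, those of Gyg from -0.13 to 0.0885 and of Phka2 from -0.003 to 0.10. Gbe1 in hyper females ran from -0.0016 to 0.10, Gys2 in hypo pups from -0.14 to 0.0494 and Pygl in hyper pups from -0.0262 to 0.0579. For hypo+ minus hypo, given without a test, the signs also turned for Gys2 in Cy5 alone (-0.30, from 0.19) and, after median centring, for Gyg (-0.0331, from 0.11) and Pygl (-0.0377, from 0.10). They turned as well for Gyg without hypo+ male 546 (-0.0465) and for Phka2 without hypo+ female 763 (0.0112, from -0.03). The reference signal of Ppp1r3c, near background on most arrays, limits its ratios, and 34 arrays limit the precision of the rest.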
